A study of Homo sapiens with 42 samples.

Results

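The HOXA-MEIS1 program was followed as 9 genes, HOXA3, HOXA5, HOXA6, HOXA7, HOXA9, HOXA10, MEIS1, PBX3 and MEF2C, picked by name from the 57353 gene names in the count table. All 9 names had a row, and 5 of them, HOXA9, HOXA10, MEIS1, PBX3 and MEF2C, were counted at levels that could be tested. MOLM-13 is a line of human acute myeloid leukemia (AML) cells whose FLT3 receptor kinase has an internal tandem duplication (FLT3-ITD) and whose KMT2A gene is fused to MLLT3, and the labels record its genotype as WT. The cells were kept in plain RPMI medium or in conditioned medium of the HS-5 human bone marrow stromal cell line mixed with RPMI (hBMSC-CM), so that no stromal cell was in the cultures. Treatment lasted 12 hours. In RPMI the cells received vehicle (DMSO), 3 nM quizartinib (AC220, a FLT3 inhibitor), or 3 nM quizartinib with 10 nM everolimus (an mTOR inhibitor), the mixture called combo below. In hBMSC-CM they received vehicle, quizartinib, everolimus alone at 10 nM, or combo at the same doses. Poly(A) RNA was sequenced from the whole lysate (input) and from the heavy polysome fraction of each of the 21 cultures, which gave 14 groups of 3 libraries with 19439370 to 38786394 counts each.

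In leukemia with a rearranged KMT2A gene, the fusion protein stays on chromatin through menin and recruits DOT1L and elongation factors to its targets. The posterior HOXA genes, MEIS1 and MEF2C are the best known of these targets. HOXA9 and HOXA10 are homeobox transcription factors that keep progenitors from maturing, and they bind DNA together with the TALE homeobox proteins MEIS1 and PBX3. MEF2C is a MADS-box transcription factor of early myeloid and lymphoid progenitors that KMT2A fusions keep on.

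The data went against the label for 4 of the 9 genes. HOXA3, HOXA5, HOXA6 and HOXA7 did not pass the filter on low counts (a mean of at least 1 count and of at least 1 CPM, the count scaled to a common library size, over the 42 libraries). In the 21 input libraries the highest count was 11 for HOXA3, 5 for HOXA5, 1 for HOXA6 and 3 for HOXA7, and the median was 0 for each of the 4. The heavy polysome libraries gave at most 24 counts for HOXA3, 4 for HOXA5, 1 for HOXA6 and 14 for HOXA7. HOXA9 was counted 583 to 1281 times in every input library and HOXA10 1076 to 2078 times. A count of 3, taken as the smallest that can be told from 0, corresponded to 0.0773 to 0.154 CPM in these libraries, and HOXA6 never exceeded it. The 5 counted genes are described below, and for the other 4 no change could be measured.

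Along the HOXA cluster on chromosome 7, the counts of HOXA9 and HOXA10 continued into their posterior neighbours. HOXA2 had a median of 0 input counts and HOXA4 of 1. From HOXA9 on, HOXA10, HOXA11 and HOXA13 had medians of 1640, 931 and 409 input counts, and the antisense RNA HOXA10-AS had 711. Of 28 HOXB, HOXC and HOXD genes none passed the filter, and 12 were at 0 in all 42 libraries. Part of the exon sequence in this cluster is shared between genes, and how the counting treated strand and shared bases is not given in the sources used here. In the annotation, HOXA5 shared none of its 1720 exon bases with another gene of the table, and HOXA7 kept 904 of 2411 that no other gene covers. HOXA10-AS covers 422 exon bases of HOXA9 and 608 of HOXA10 on the opposite strand, so reads there may have been lost or assigned to either gene, which was not tested. The readthrough gene that joins HOXA10 to HOXA9 was listed at 0 counts throughout.

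**Figure D1:**
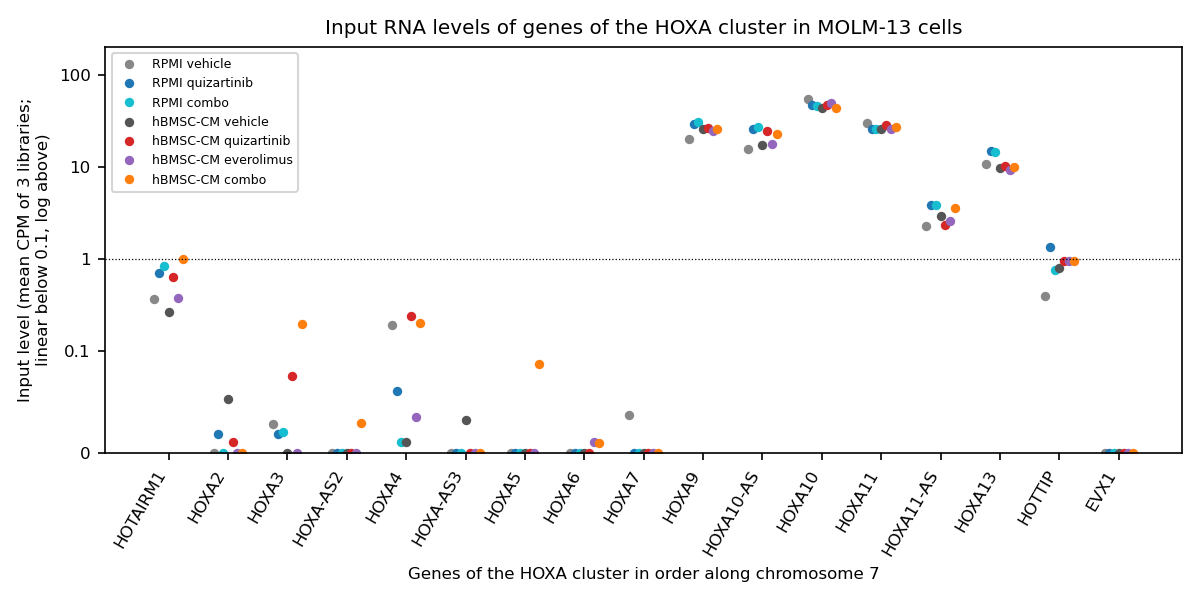
Input level of genes of the HOXA cluster, in order along chromosome 7, as the mean CPM of 3 libraries (vertical axis, linear below 0.1 CPM and logarithmic above), with a point for each of the 7 conditions. The dotted line is the filter at 1 CPM. HOXA9, HOXA10, HOXA11, HOXA13 and HOXA10-AS sit near or above 10 CPM in the 7 conditions, whereas HOXA2 to HOXA7 stay far below 1 CPM.

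The windows just before the RefSeq starts of HOXA7 and HOXA9 are printed because the boundary between uncounted and counted genes runs between them, and those of MEIS1 and PBX3 because these genes had the largest quizartinib changes among the 5. All are 5′ to 3′ on the strand of the gene, from RefSeq on GRCh38.p14, and bases inside an exon of a protein-coding transcript were left out at the 3′ end. They lie at chr7:27156755-27156925 (minus strand, HOXA7), chr7:27165538-27165787 (minus strand, HOXA9), chr2:66434875-66435124 (plus strand, MEIS1) and chr9:125747933-125748181 (plus strand, PBX3). Capitals mark a match to TGACAG, the MEIS core motif, on either strand.
HOXA7: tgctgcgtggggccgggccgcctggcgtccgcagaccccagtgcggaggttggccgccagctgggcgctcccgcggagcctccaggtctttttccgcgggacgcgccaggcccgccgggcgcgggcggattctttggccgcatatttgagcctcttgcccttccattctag
HOXA9: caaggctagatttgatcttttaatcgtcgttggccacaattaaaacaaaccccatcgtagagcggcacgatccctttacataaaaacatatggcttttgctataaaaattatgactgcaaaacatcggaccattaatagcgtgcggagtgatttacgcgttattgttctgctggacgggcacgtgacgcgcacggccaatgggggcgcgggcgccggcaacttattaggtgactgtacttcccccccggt
MEIS1: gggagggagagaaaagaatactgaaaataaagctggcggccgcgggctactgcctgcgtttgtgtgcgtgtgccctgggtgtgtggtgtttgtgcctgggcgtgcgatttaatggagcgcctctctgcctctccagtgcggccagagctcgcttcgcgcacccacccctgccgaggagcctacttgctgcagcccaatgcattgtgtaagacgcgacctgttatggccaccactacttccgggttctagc
PBX3: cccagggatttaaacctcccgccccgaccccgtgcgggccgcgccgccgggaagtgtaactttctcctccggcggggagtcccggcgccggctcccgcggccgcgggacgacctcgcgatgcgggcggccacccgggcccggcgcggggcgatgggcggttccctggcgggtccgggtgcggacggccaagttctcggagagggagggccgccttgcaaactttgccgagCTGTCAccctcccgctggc

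The HOXA7 window held 28 CpG dinucleotides in 250 bases and the HOXA9 window 20, while the median of 34943 windows of that length was 11. The uncounted and the counted gene both had more CpG than the median window. The PBX3 window was the richest of the 4, with 36 CpG. A MEIS core match occurred in the PBX3 window only, and 13.1% of all windows held at least 1. None of the 4 windows held TGATNNAT, the core of a joint PBX-HOX site, on either strand, and 6.49% of all windows did. These matches describe the letters only.

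Levels of the 5 genes were compared with each other per kilobase of annotated exon. At the median input library PBX3 stood highest, at 18.2 CPM per kb, followed by HOXA10 at 12.9, MEF2C at 9.70, HOXA9 at 8.54 and MEIS1 at 7.34. On the plain CPM scale used from here on, the levels ran from 19.1 to 33.6 for HOXA9, 36.3 to 58.4 for HOXA10, 40.1 to 112 for MEIS1, 66.8 to 135 for PBX3 and 89.6 to 160 for MEF2C. HOXA9 on chr7:27162438-27175180 and HOXA10 on chr7:27170605-27180261 are neighbours on the minus strand (GENCODE annotation of GRCh38, a release other than the one used for counting). MEIS1 lies on chr2:66433452-66573869 on the plus strand, PBX3 on chr9:125747345-125967377 on the plus strand and MEF2C on chr5:88717117-88904257 on the minus strand.

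KMT2A, its fusion partner and menin were counted in every group. KMT2A, which the fusion and the normal allele both count towards, ranged from 18.5 ± 0.865 CPM (SD, n = 3) in hBMSC-CM with vehicle to 35.3 ± 4.21 in RPMI with combo. MLLT3, the fusion partner, ranged from 12.9 ± 0.548 in RPMI with vehicle to 25.4 ± 1.01 in RPMI with combo. MEN1, which codes for menin, ranged from 48.3 ± 7.31 in hBMSC-CM with combo to 76.3 ± 8.69 in RPMI with vehicle. None of the 3 passed the test in any of the 8 input comparisons, in which 0.00773% to 34.6% of all tested genes passed. None of the 8 set the lowest and highest groups named here against each other, so these ranges were not tested. Gene counts do not show whether a read came from the fusion. All of 10 markers of myeloid leukemia cells were counted in some library, their summed level was 1620 to 3030 CPM in every input library, and ANPEP, which codes for CD13, had a median of 0. Of 10 stromal markers, COL3A1, LUM and POSTN were at 0 in all 42 libraries and 9 of the 10 stayed below the filter.

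The comparisons below answer what FLT3 inhibition does to the program, whether conditioned medium changes it with and without drug, and what mTOR inhibition adds. Each used the edgeR quasi-likelihood test over 12939 genes with Benjamini-Hochberg adjustment, and "called" means an adjusted p below 0.05. Fold changes are on the log2 scale with their standard error (SE). The study describes its replicates as biological, and the labels give them numbers only. In bulk RNA, a change within every cell cannot be told apart from a change in which cells remain.

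MEIS1, the TALE partner of HOXA9, was higher under quizartinib in both media. In RPMI its input level was 40.1, 55.2 and 50.9 CPM with vehicle and 86.7, 94.5 and 112 CPM with quizartinib. All 3 treated libraries lay above all 3 vehicle libraries. The change was 1.00 (SE 0.19), a 2.01-fold rise, with an adjusted p of 7.82e-05 by edgeR, and it was called in all 15 alternative settings. In hBMSC-CM, MEIS1 was at 46.0, 50.2 and 42.4 CPM with vehicle and at 73.5, 80.3 and 81.1 CPM with quizartinib, again without overlap. The change there was 0.76 (SE 0.19), a 1.69-fold rise, with an edgeR adjusted p of 0.00699. It missed the threshold in 1 of 15 settings, without hBMSC-CM vehicle replicate 3, where the adjusted p was 0.0543.

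PBX3, the other TALE partner, was at 81.8, 69.9 and 77.7 CPM in RPMI with vehicle and at 134, 126 and 135 CPM with quizartinib. The groups did not overlap, and each spanned less than the gap between them. The change of 0.78 (SE 0.33; 1.72-fold, 95% interval 0.11 to 1.46) had an edgeR adjusted p of 0.0655 and was not called. It was called in 8 of 15 alternative settings. The fit estimated 1 spread per gene over both fractions, and the median coefficient of variation of PBX3 among replicates was 7.49% in input and 40.8% in polysomes. Fitted with a term for the replicate number (a replicate block) the adjusted p was 0.0214, with such a term in each fraction 0.00113, and with the 21 input libraries alone, a setting chosen after seeing the data, 1.45e-05. In these settings 42.3%, 48.9% and 46.3% of all tested genes were called, beside 34.6% in the main fit. In hBMSC-CM, PBX3 was at 79.2, 66.8 and 68.5 CPM with vehicle and 95.1, 89.3 and 85.5 CPM with quizartinib, a difference of 0.33 (95% interval -0.34 to 1.00) with an adjusted p of 0.571, or 0.0347 with the input libraries alone. The input libraries alone called 25.8% of all tested genes there, beside 12.3% in the main fit.

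HOXA9 in RPMI was at 19.1, 21.1 and 19.7 CPM with vehicle and at 27.7, 26.1 and 33.2 CPM with quizartinib. The groups did not overlap, and RPMI with vehicle was the lowest of the 7 conditions for this gene. The change of 0.54 (SE 0.27; 1.45-fold, 95% interval -0.01 to 1.08) was not called, with an edgeR adjusted p of 0.120. The replicate block gave 0.0331, and a block in each fraction gave 0.00976, settings in which 42.3% and 48.9% of all tested genes were called. It was called in 4 of 15 alternative settings. In hBMSC-CM, HOXA9 was at 22.4, 20.7 and 33.6 CPM with vehicle and 21.7, 25.3 and 32.4 CPM with quizartinib, so that the groups covered the same range. The change there was 0.05 (95% interval -0.49 to 0.59).

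HOXA10, the neighbour of HOXA9 in the cluster, and MEF2C gave no call under quizartinib. HOXA10 in RPMI was at 49.1, 54.1 and 58.4 CPM with vehicle and 42.9, 52.6 and 44.9 CPM with quizartinib, a difference of -0.20 (95% interval -0.62 to 0.21). In hBMSC-CM the HOXA10 difference was 0.12 (95% interval -0.29 to 0.53). MEF2C in RPMI was at 112, 135 and 107 CPM with vehicle and 107, 125 and 103 CPM with quizartinib, a difference of -0.08 (95% interval -0.44 to 0.28). Its difference in hBMSC-CM was 0.08 (95% interval -0.28 to 0.44). The groups overlapped in all 4 cases, and the intervals reach no further than about 0.62 in either direction.

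Over the 5 tested genes, quizartinib in RPMI thus gave 1 call, where 34.6% of all tested genes were called. With the replicate block it gave 3, where 42.3% of all tested genes were called. In 3 of the 5 the groups did not overlap, and the same held for 55.7% of all tested genes. In hBMSC-CM it gave 1 call, where 12.3% of all tested genes were called, and 2 of the 5 had groups without overlap, where 34.1% of all tested genes did. The median change of the 5 was 0.54 in RPMI and 0.12 in hBMSC-CM, beside 0.08 and 0.01 over all tested genes. None of the 5 passed the test of the difference between media in the quizartinib change, in which 1.96% of all tested genes were called and no member had an unadjusted p below 0.05. The interval of that difference was -0.79 to 0.30 for MEIS1, -1.40 to 0.50 for PBX3 and -1.26 to 0.28 for HOXA9, so neither a smaller nor an equal rise in hBMSC-CM was shown. COL1A1, a collagen gene on the stromal list, moved with quizartinib as well, from 0.948 ± 1.22 to 20.5 ± 12.3 CPM (SD, n = 3) in RPMI input and from 0.633 ± 0.0927 to 12.0 ± 7.16 CPM in hBMSC-CM input. Scaled by library totals only, the 10 stromal markers summed to 0.800 to 4.76 CPM with vehicle and 9.61 to 41.5 CPM with quizartinib in RPMI input. This sum includes COL1A1, which reached up to 38.8 CPM in an input library, whereas the next highest gene of the list, COL1A2, reached 2 CPM. In each of these RPMI groups 5 of the 10 were at 0, and the part of the stromal markers in the changes above was not tested.

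**Figure D2:**
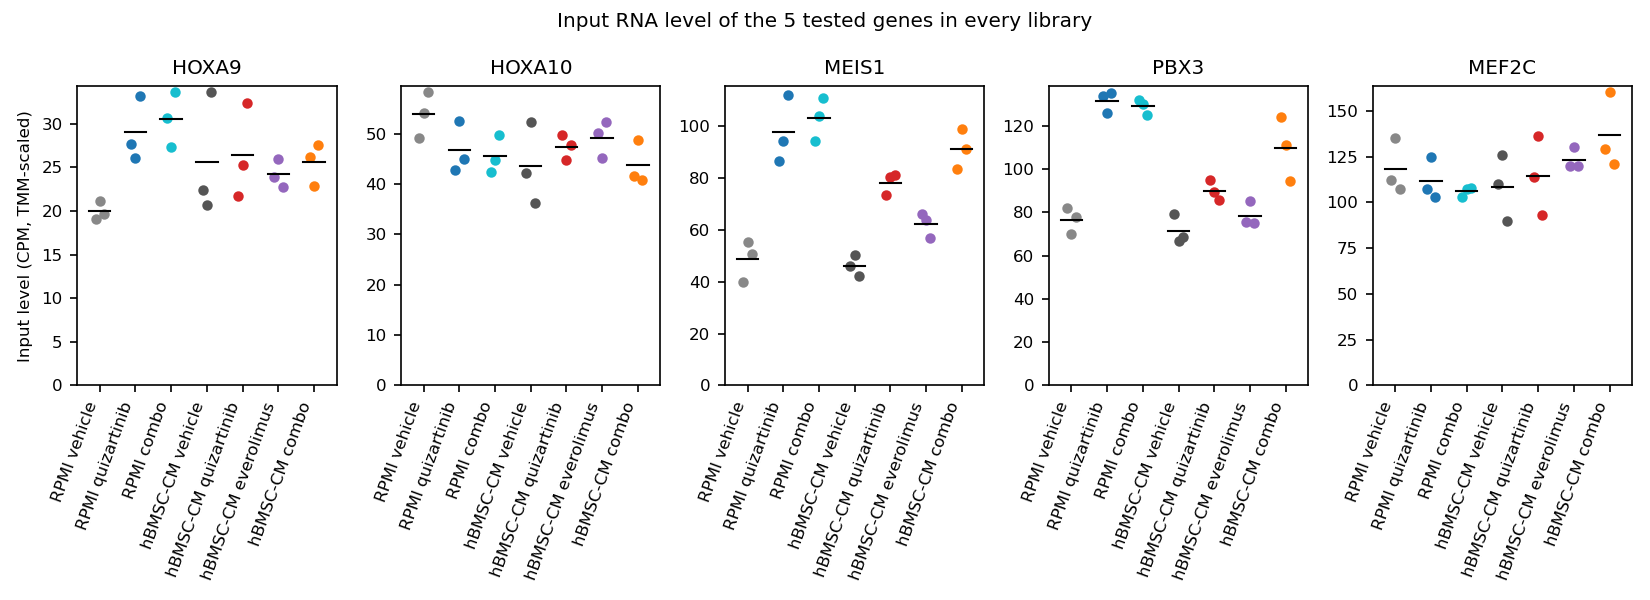
Input level in CPM (vertical axis, from 0) of HOXA9, HOXA10, MEIS1, PBX3 and MEF2C in every library of the 7 conditions. Points are libraries and bars are means of 3. MEIS1 and PBX3 sit above their vehicle libraries wherever quizartinib was given, at 73.5 CPM or more for MEIS1 and 85.5 or more for PBX3.

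Conditioned medium gave no call among the 5 genes in the fit of all libraries, and PBX3 under quizartinib was called lower in 3 of 15 other settings. Without drug, none of the 5 genes was called between hBMSC-CM and RPMI, none had an unadjusted p below 0.05, and 1.51% of all tested genes were called by edgeR. The differences ran from -0.31 for HOXA10 (95% interval -0.72 to 0.11) to 0.36 for HOXA9 (95% interval -0.19 to 0.90). Under quizartinib, again none of the 5 was called or had an unadjusted p below 0.05, and 8.16% of all tested genes were called. MEIS1 and PBX3 were lower in each hBMSC-CM library than in any RPMI library under the drug. MEIS1 was at 73.5 to 81.1 CPM against 86.7 to 112 CPM, a difference of -0.32 (95% interval -0.70 to 0.06). PBX3 was at 85.5 to 95.1 CPM against 126 to 135 CPM, a difference of -0.55 (SE 0.33; 95% interval -1.22 to 0.12) with an edgeR adjusted p of 0.416. With a replicate block in each fraction the adjusted p of PBX3 was 0.0475, and with a plain replicate block it was 0.237. It was 0.0314 with the compared groups only and 0.00171 with the input libraries alone. All tested genes were called at 17.6% with the block in each fraction, 8.47% with the compared groups only and 15.6% with the input libraries alone. Groups without overlap occurred in 29.8% of all tested genes in this comparison.

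Everolimus gave no call among the 5 genes, alone or on top of quizartinib. Combo against quizartinib in RPMI called 0.00773% of all tested genes and combo against quizartinib in hBMSC-CM 0.240%, with no member at an unadjusted p below 0.05 in either. In RPMI, MEIS1 was at 94.4, 104 and 111 CPM with combo, within the range with quizartinib alone, and PBX3 was at 132, 130 and 125 CPM. In hBMSC-CM, MEIS1 was at 83.4, 98.9 and 91.2 CPM with combo, above the 3 libraries with quizartinib alone, with a difference of 0.22 (95% interval -0.16 to 0.60), and groups without overlap made up 14.7% of all tested genes. PBX3 there was at 124, 111 and 94.3 CPM, which overlapped the quizartinib libraries. MEF2C reached its highest level of all in hBMSC-CM with combo, at 129, 160 and 121 CPM, a difference from quizartinib of 0.26 (95% interval -0.10 to 0.62).

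Everolimus alone in hBMSC-CM was compared with vehicle in the same medium, where 0.410% of all tested genes were called. MEIS1 was at 66.0, 63.7 and 57.1 CPM, above the 3 vehicle libraries at 42.4 to 50.2 CPM and below the 3 quizartinib libraries. The change of 0.43 (SE 0.19; 1.35-fold, 95% interval 0.05 to 0.81) had an unadjusted p of 0.0294 in the edgeR fit and an adjusted p of 0.480, and was not called in any of 15 settings. No other of the 5 genes had an unadjusted p below 0.05 here or groups without overlap, which 27.7% of all tested genes had. HOXA9, HOXA10, PBX3 and MEF2C overlapped with vehicle, with differences of -0.08, 0.18, 0.14 and 0.19.

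**Figure D3:**
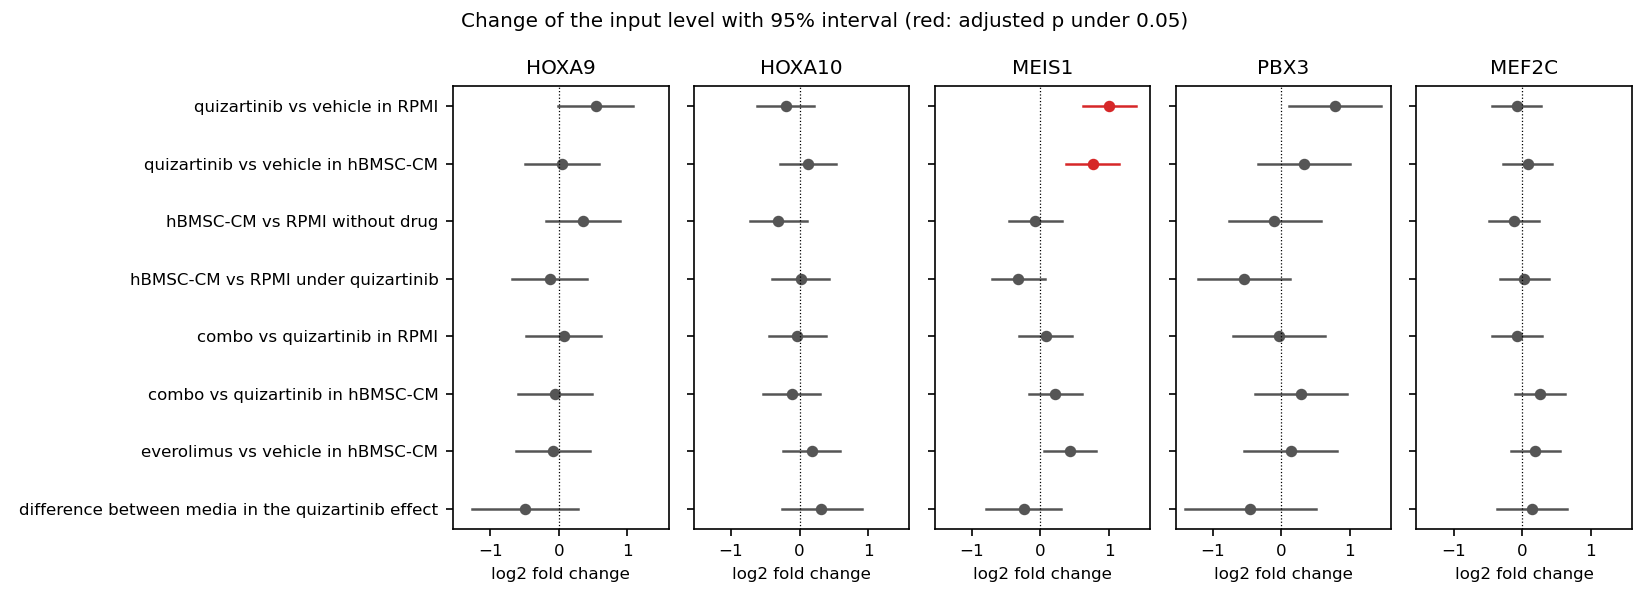
Log2 change of the input level (horizontal axis) with its 95% interval for the 5 tested genes in the 8 comparisons. Red marks an adjusted p below 0.05. The red points are MEIS1 under quizartinib, at 1.00 in RPMI and 0.76 in hBMSC-CM, and PBX3 in RPMI, at 0.78, lies between them without a call.

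By level, the 7 conditions fell into a similar order for MEIS1 and PBX3 and not for the rest. For MEIS1 the order ran from both vehicle groups, which overlapped, through everolimus and then quizartinib in hBMSC-CM, each apart from its neighbours, to combo in hBMSC-CM and to quizartinib and combo in RPMI, which overlapped. For PBX3 the vehicle groups and everolimus overlapped, quizartinib and combo in hBMSC-CM came next and overlapped, and combo and quizartinib in RPMI stood above all. For HOXA9 only RPMI with vehicle stood apart from its neighbour. For HOXA10 and MEF2C every neighbouring pair overlapped. Over the 21 input libraries Pearson's r of the log2 level was 0.854 between MEIS1 and PBX3 and -0.343 between their deviations from the group means, so the likeness lay between conditions and not between replicates. These values describe libraries that share conditions and carry no test.

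The genes outside the program whose input pattern was most like that of MEIS1 were ING4 (r = 0.978), BRD8 (0.976) and DCAF5 (0.972), over 21 libraries. ING4 and BRD8 belong to histone acetyltransferase complexes. For HOXA9 the nearest were the long non-coding RNAs AC100810.1 (0.916) and AP001816.1 (0.911) and the gene COMMD6 (0.908). For MEF2C they were PACSIN2 (0.836), DIP2B (0.818) and ST8SIA4 (0.812).

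The genes around the program were read in lists. Among the other HOXA cluster genes 5 of 13 could be tested, and 1 was called under quizartinib in RPMI, beside 34.6% of all tested genes. It was the antisense RNA HOXA10-AS, which rose by 0.72 (adjusted p 0.0448) from 15.5 ± 1.85 to 25.5 ± 5.22 CPM (SD, n = 3). HOXA11 had a difference of -0.23 and HOXA13 of 0.45, neither called. No gene of this list was called in the other 7 input comparisons, in which 0.00773% to 12.3% of all tested genes were called. Of the list members the median change in RPMI was 0.45, beside 0.08 over all tested genes.

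Among 7 tested of 10 other TALE genes and their cofactors, quizartinib in RPMI called 3 higher and 1 lower, beside 34.6% of all tested genes in either direction. PBXIP1, a PBX-binding protein, rose from 38.9 ± 10.4 to 152 ± 16.8 CPM, a change of 1.97 (adjusted p 7.24e-06), and PKNOX1, a relative of MEIS1, fell by 0.75 (adjusted p 0.0257). In hBMSC-CM, where 12.3% of all tested genes were called, PBXIP1 was the only call of this list, with a rise of 1.25 (adjusted p 0.00704). The other MEF2 factors and class IIa histone deacetylases, which bind MEF2 proteins and repress them, had 6 of 7 genes tested, with 2 higher and 1 lower in RPMI. HDAC5 rose by 1.76 (adjusted p 3.35e-05) and HDAC4 fell by 0.45 (adjusted p 0.0398). In hBMSC-CM, 2 were higher and HDAC5 rose most, by 0.99 (adjusted p 0.0312). Between media under quizartinib, where 8.16% of all tested genes were called, 2 were lower in hBMSC-CM, and HDAC9 was lowest, at -1.89 (adjusted p 0.000261).

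All 21 genes of the KMT2A fusion machinery were tested, and quizartinib in RPMI called 1 higher and 3 lower, where 34.6% of all tested genes were called. AFF4, a scaffold of the super elongation complex, rose by 0.90 (adjusted p 0.00380), and WDR5, a core subunit of KMT2 complexes, fell by 1.59 (adjusted p 1.48e-07) from 138 ± 25.5 to 46.1 ± 3.23 CPM. DOT1L, the H3K79 methyltransferase, went from 224 ± 13.1 to 91.0 ± 5.25 CPM. In hBMSC-CM 2 were lower (12.3% of all tested genes were called), and WDR5 fell most, by 0.66 (adjusted p 0.0265). Under quizartinib 2 were higher in hBMSC-CM than in RPMI (8.16% of all tested genes were called), and DOT1L differed most, by 0.71 (adjusted p 0.000747). DOT1L was also the 1 gene of this list called in the difference between media in the quizartinib change, at 0.83 (adjusted p 0.0189).

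Of the other genes tied to KMT2A fusions or to HOXA9 and MEIS1, 17 of 24 were tested, and quizartinib in RPMI called 6 higher and 4 lower, where 34.6% of all tested genes were called. RUNX2, a Runt-family transcription factor, rose by 1.58 (adjusted p 5.14e-06) and MYC, a growth-promoting transcription factor, fell by 3.52 (adjusted p 1.85e-10) from 490 ± 75.1 to 42.7 ± 11.8 CPM. In hBMSC-CM (12.3% of all tested genes called) 1 was higher and 1 lower, namely SENP6 with a rise of 0.88 (adjusted p 0.0319) and BCL2, which fell by 0.67 (adjusted p 0.00564). Without drug (1.51% of all tested genes called) 2 were lower in hBMSC-CM, and FLT3 differed most, at -1.34 (adjusted p 0.00219). Under quizartinib (8.16% of all tested genes called) 2 were higher and 2 lower in hBMSC-CM, with MYC at 3.14 (adjusted p 7.63e-09) and FLT3 at -2.21 (adjusted p 3.06e-07). Under quizartinib in RPMI, called genes thus lay in both directions in each list but the other HOXA cluster genes, which had 1 call. In hBMSC-CM only the last list had calls in both directions.

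**Figure D4:**
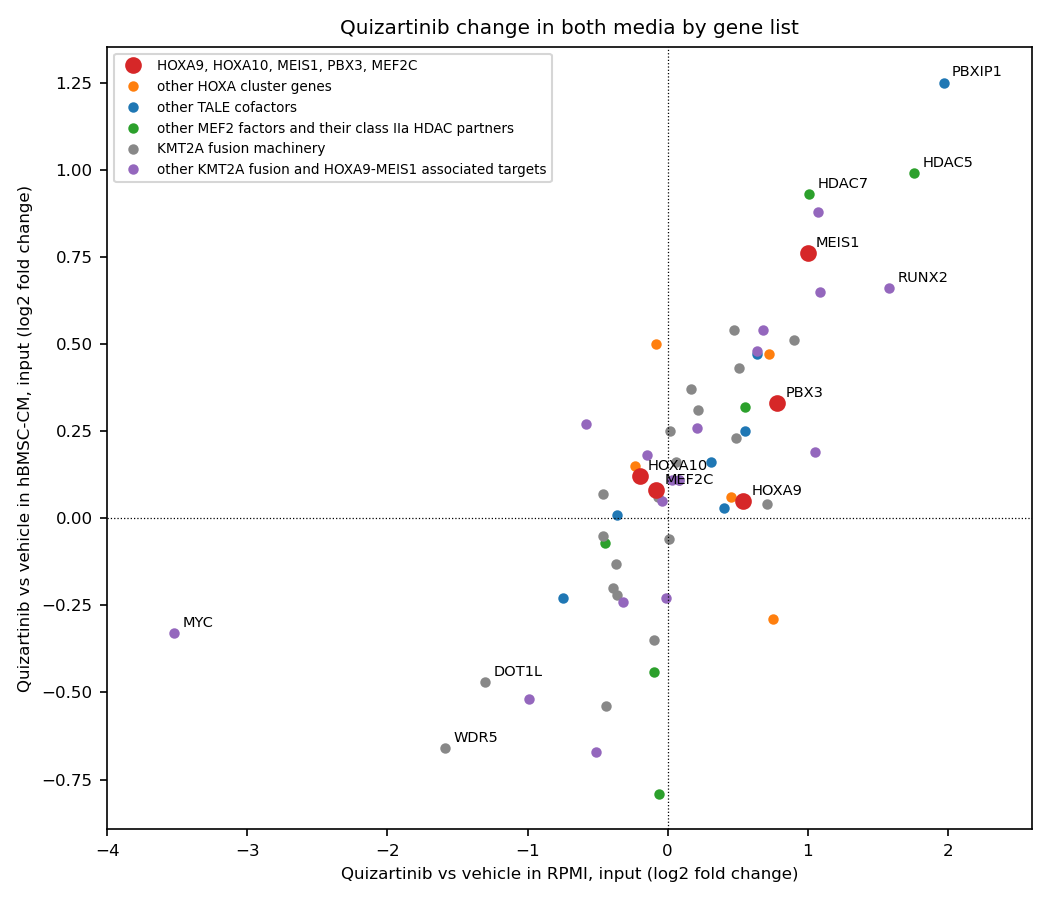
Log2 change of the input level with quizartinib in RPMI (horizontal axis) and in hBMSC-CM (vertical axis) for the 5 tested genes, in large red points, and for the genes of the lists, coloured by list. MEIS1 lies at 1.00 and 0.76, close to HDAC7 and below PBXIP1 at 1.97 and 1.25, while HOXA10 and MEF2C lie near the origin and MYC lies far to the left at -3.52.

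The polysome fraction was then read against the input of the same culture. The heavy fraction holds messenger RNA with 5 or more ribosomes, so that polysome minus input (log2 CPM) tells how much of a message sits in heavily loaded form relative to other messages. PBX3 was the message most under-represented in heavy polysomes among the 5. Its polysome minus input value was -2.15, -2.47 and -1.43 in RPMI with vehicle and -1.99, -2.83 and -1.58 in hBMSC-CM with vehicle. It was negative in all 21 cultures, from -2.83 to -0.58, and was called lower in all 7 conditions. The fitted change was -1.94 (SE 0.34, adjusted p 1.30e-05 by edgeR) in RPMI with vehicle, which placed PBX3 at the 10.1 percentile of all tested genes, and -2.04 (SE 0.35, adjusted p 6.92e-06) in hBMSC-CM with vehicle, at the 8.82 percentile. Over the 7 conditions the percentile of PBX3 ran from 8.82 to 22.7.

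MEIS1 was also lower in polysomes in all 21 cultures, from -1.41 to -0.09, and was called lower in 6 of 7 conditions. Over the 7 conditions MEIS1 lay at the 24.3 to 39.2 percentile of all tested genes. In RPMI with vehicle it was at -1.06, -1.41 and -0.92, and in RPMI with combo, the condition without a call, at -0.09, -0.72 and -0.24. MEF2C was lower in all 21 cultures as well, from -0.98 to -0.05, and was called lower in 5 of 7 conditions. MEF2C lay at the 36.6 to 42.9 percentile of all tested genes. HOXA9 was lower in 19 of 21 cultures and was called lower in hBMSC-CM with vehicle, at -1.05, -1.29 and -0.97, and in hBMSC-CM with quizartinib. Its percentile ran from 26.2 to 49.7. With the replicate block HOXA9 was also called lower in RPMI with vehicle, at an adjusted p of 0.00390, in RPMI with quizartinib, at 0.00612, and in RPMI with combo, at 0.0103, where it had 0.0526, 0.0568 and 0.0747 without it. With a block in each fraction the contrast is set at the level of replicate 1 and is not the mean of the 3 replicates. At that level MEF2C was not called in hBMSC-CM with quizartinib, at an edgeR adjusted p of 0.0925, or with combo, at 0.0816. Replicate 1 of MEF2C was the least negative there, at -0.12 with quizartinib and -0.09 with combo.

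HOXA10 differed from its neighbour HOXA9 in this measure. It was lower in polysomes in 10 of 21 cultures, was called lower in RPMI with vehicle (-0.40, -0.98 and -0.47) and was called higher in RPMI with combo (0.77, 0.25 and 0.48). The fitted value of the second was 0.51 (SE 0.20), with an adjusted p of 0.0319 by edgeR. It was 0.24 with an adjusted p of 0.413 when libraries were scaled by their totals only, and the adjusted p was 0.0517 with a block per culture. That scaling shifted the median of all genes by -0.55 to -0.28 over the 7 conditions. In RPMI with combo the median went from 0.06 to -0.22, and HOXA10 stood 0.45 above it in the first case and 0.46 in the second. Scaling by totals also turned HOXA10 in RPMI with quizartinib from 0.19 to -0.13 and in hBMSC-CM with combo from 0.21 to -0.20, neither of which was called. A block in each fraction sets this contrast at the level of replicate 1, so it does not test the mean of the replicates. At that level both were 0.43, with edgeR adjusted p values of 0.0342 and 0.0327, and HOXA10 in RPMI with vehicle had 0.0550.

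In number, 4 of the 5 genes were called in RPMI with vehicle (65.4% of all tested genes were called), 2 in RPMI with quizartinib (57.9%), 2 in RPMI with combo (59.3%), 4 in hBMSC-CM with vehicle (63.6%), 4 in hBMSC-CM with quizartinib (58.7%), 3 in hBMSC-CM with everolimus (58.6%) and 3 in hBMSC-CM with combo (63.0%). These shares lie around those of all genes, and the direction was lower in all but HOXA10 in RPMI with combo. The median over the 5 was between -0.87 and -0.33, beside -0.11 to 0.06 over all tested genes. Replicate 2 gave the lowest polysome minus input value in 29 of the 35 gene and condition pairs, and in 6 of 7 conditions for PBX3, so that the value of a culture also moved with its replicate number. Without replicate 2 of RPMI with vehicle the 4 calls became 2, without RPMI quizartinib replicate 2 its 2 calls became 0, and without hBMSC-CM quizartinib replicate 2 its 4 calls became 2. Without hBMSC-CM combo replicate 2 its 3 calls became 1. The 2 calls of RPMI with quizartinib became 1 without its replicate 1 and 4 without its replicate 3, and the 2 calls of RPMI with combo became 1 without its replicate 1 or its replicate 2.

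**Figure D5:**
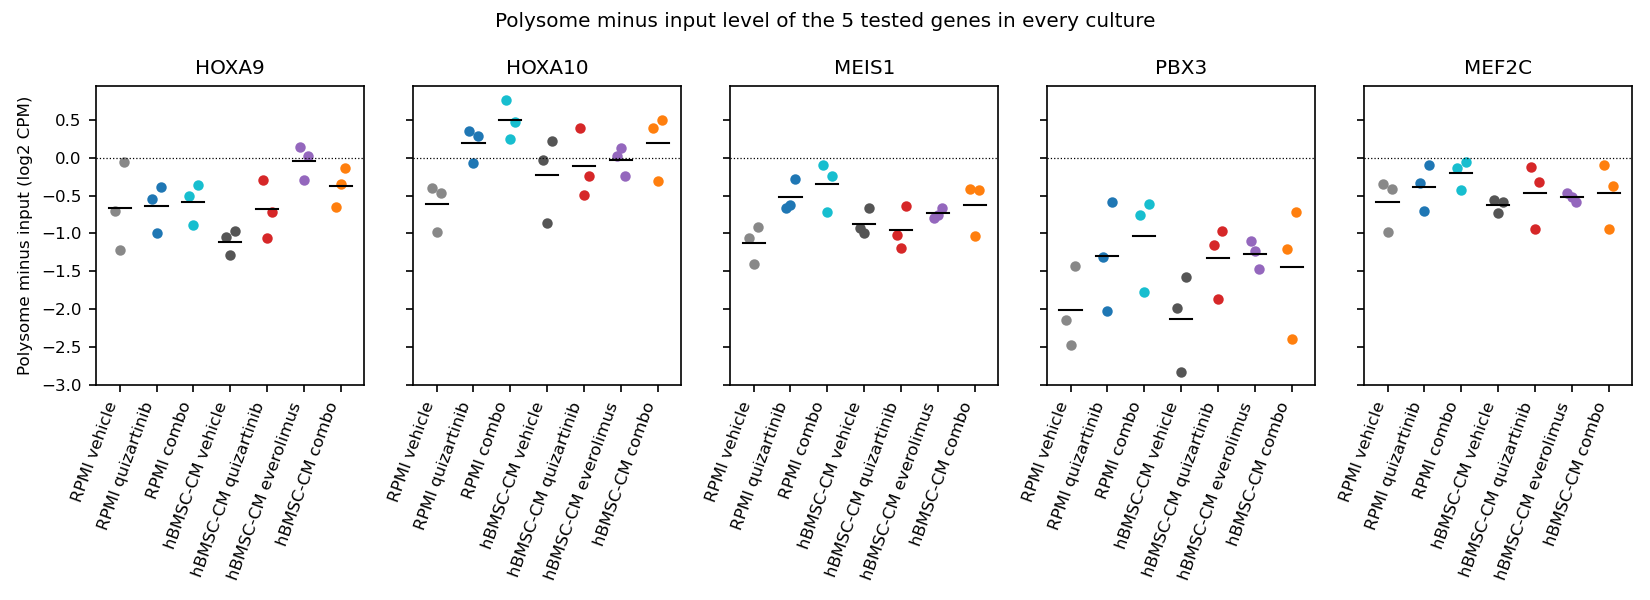
Polysome minus input level (log2 CPM, vertical axis) of HOXA9, HOXA10, MEIS1, PBX3 and MEF2C in each of the 21 cultures by condition. Points are cultures, bars are means of 3, and the dotted line at 0 marks equal levels in both fractions. PBX3 lies lowest, with means from -2.13 to -1.04, and HOXA10 lies around 0.

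The last question was whether a drug or medium moved a message into or out of heavy polysomes, beyond its change in input. None of the 5 genes was called in any of the 8 comparisons by edgeR, where 1.55% of all tested genes were called for quizartinib in RPMI and 0% for each of the other 7. By DESeq2 the all-gene counts in those 7 were 0 to 13, and by limma voom 0. For quizartinib in RPMI, HOXA10 and MEIS1 had an unadjusted p below 0.05. HOXA10 polysome minus input went from -0.40, -0.98 and -0.47 to 0.36, -0.07 and 0.29, with no overlap between the groups, as in 19.8% of all tested genes. Its change was 0.79 (SE 0.29; 95% interval 0.20 to 1.37), with an edgeR adjusted p of 0.170. MEIS1 went from -1.06, -1.41 and -0.92 to -0.67, -0.62 and -0.28, also without overlap, a change of 0.64 (SE 0.27; 95% interval 0.09 to 1.18) with an adjusted p of 0.236. With a replicate block in each fraction both were called, at adjusted p values of 0.0155 for HOXA10 and 0.0420 for MEIS1, and with a plain replicate block neither was. That block in each fraction called 11.7% of all tested genes in this comparison.

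PBX3 had similar values in both media under quizartinib, 0.77 in RPMI and 0.76 in hBMSC-CM, with intervals of -0.19 to 1.72 and -0.20 to 1.72, and neither was called. HOXA9 had a value of 0.00 in RPMI (95% interval -0.74 to 0.74). For everolimus in hBMSC-CM, PBX3 went from -1.99, -2.83 and -1.58 to -1.10, -1.23 and -1.47, without overlap, a change of 0.78 (95% interval -0.17 to 1.74) that was not called, at an edgeR adjusted p of 1.00. In the same comparison HOXA9 went from -1.05, -1.29 and -0.97 to 0.14, -0.29 and 0.03, also without overlap, as in 18.1% of all tested genes. The HOXA9 change, 1.04 (SE 0.38; 2.05-fold, 95% interval 0.27 to 1.81), was the largest of the 5 genes in these comparisons and lay at the 97.3 percentile of all tested genes. It had an unadjusted p of 0.00984 in the edgeR fit, an adjusted p of 1.00, and was not called in any of 15 settings, where the adjusted p ranged from 0.0579 to 1.00. MEF2C had changes between -0.08 and 0.20 in the 8 comparisons.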

How the data were processed

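The authors trimmed adapters and short reads with BBDuk, aligned the reads to the human Ensembl genome (GRCh38, the release 96 annotation) and deposited gene counts made with STAR 2.6.0a, which the submitters' processing notes name. Whether strand was used is not given in the sources used here. The deposited counts were not normalized. From them, rows that share a gene name were summed, genes with a mean below 1 count or 1 CPM over the 42 libraries were left out, TMM factors were computed, and 12939 genes were fitted in edgeR 4.0.16 (R 4.3.3) by the quasi-likelihood test with 14 group means and Benjamini-Hochberg adjustment, threshold 0.05. Polysome against input, and the difference between media, were contrasts of the same fit. Levels are TMM-scaled CPM, and polysome minus input used log2 CPM with a prior count of 2. The marker sums, the filter and the CPM of 3 counts were scaled by library totals only. Intervals are at 95%. Library totals were 19439370 to 38786394 counts, and 3 counts correspond to 0.0773 to 0.154 CPM.

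Replicate numbers from the labels paired the samples in 6 of the 7 contrasts of conditions. Same-numbered libraries deviated together there, with correlations of 0.156 to 0.715 in every pair, and not for everolimus against vehicle, where they were -0.0898 to 0.0267. The paired fits are therefore given beside the results whose call they change. Alternatives were RLE factors, library totals only, DESeq2 1.42.0, limma voom (limma 3.58.1), no filter, the compared groups only, replicate blocks and leaving out each of the 21 cultures. A fit of the 21 input libraries alone was added after seeing the data. Genes named beside the 9 members were, for each list, the called gene with the largest rise and the largest fall in the comparisons of quizartinib and of medium in input, the 3 nearest genes by Pearson's r for HOXA9, MEIS1 and MEF2C, and KMT2A, MLLT3 and MEN1. Other genes, among them DOT1L in RPMI, HDAC7, COL1A1, HOXA11 and HOXA13, were named after their values were seen. The members and the lists were chosen with earlier results of these data known. Values of 1 gene of the HOXA cluster are not reported here. The scripts were tested on simulated data for quizartinib against vehicle in RPMI input only, in the fit without blocks.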

Additional observations from a re-analysis of the deposited data

How the results depend on the processing

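Of the counts of called genes among the 5 tested, 304 alternative values stayed within 1.5 times the main count, 32 did not, and no change that had been called was turned in direction. For quizartinib in RPMI input the count of 1 became 2 with RLE factors, DESeq2, limma voom or no filter. All tested genes were called at 35.2%, 37.7%, 37.8% and 12.3% there, beside 34.6% in the main fit. The count became 3 with the replicate block, the replicate block within each fraction, the compared groups only or the input libraries alone. There 42.3%, 48.9%, 46.5% and 46.3% of all tested genes were called. For quizartinib in hBMSC-CM input the count was 2 with the input libraries alone (25.8% of all tested genes called), and leaving out a culture gave 0 to 1. For hBMSC-CM against RPMI under quizartinib the count of 0 became 1 with the block within each fraction, the compared groups only or the input libraries alone. All tested genes were called at 17.6%, 8.47% and 15.6% there. For polysome relative to input with quizartinib in RPMI the count became 2 with the block within each fraction (11.7% of all tested genes called). For polysome against input, RPMI with quizartinib gave 4 with library totals only or DESeq2 (56.6% and 60.5% of all tested genes called). It gave 1 with no filter or the compared groups only (22% and 48.9%). The block within each fraction gave 4 as well (66.3%), but it sets this contrast at the level of replicate 1. With no filter, RPMI vehicle gave 2, RPMI combo 1, hBMSC-CM quizartinib 2 and hBMSC-CM combo 1, and with the compared groups only hBMSC-CM quizartinib gave 2. All tested genes were called at 25.1%, 23%, 22.4% and 24.2% with no filter, in that order, and at 49% in the last case. Leaving out a culture gave 2 to 5 in RPMI vehicle, 0 to 4 in RPMI quizartinib, 1 to 2 in RPMI combo, 2 to 4 in hBMSC-CM quizartinib and 1 to 3 in hBMSC-CM combo. The cause of these moves was not tested. The blocks changed no other count by over 1.5 times and no call of a single gene beyond those given with the results. Same-numbered libraries did not pair the everolimus cultures with vehicle. Between the 2 fractions of a culture, pairing was weak or absent in 4 of 7 conditions. The correlations there were 0.0708 to 0.178 in RPMI combo, 0.083 to 0.272 in hBMSC-CM quizartinib, -0.0438 to 0.287 in hBMSC-CM combo and -0.0196 to 0.0146 in hBMSC-CM everolimus. The median coefficient of variation of PBX3 among polysome replicates was 40.8%, and with 3 libraries a group the widest interval of PBX3 in polysome relative to input, for the difference between media in the quizartinib change, was -1.36 to 1.34.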

Other observations

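HOXA9 and HOXA10 are neighbours on the same strand, and their input levels ran against each other. Over the 21 input libraries Pearson's r of their log2 levels was -0.593, and of their deviations from the group means -0.554. HOXA9 and MEF2C gave -0.514 and -0.637 in the same way, while HOXA10 and MEF2C gave 0.328 and 0.496. HOXA9 and MEIS1 had 0.579 over the libraries and 0.0992 over the deviations. The libraries share conditions and replicate numbers, so these values are given as a description without a test.

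HOXA11, next to HOXA10 in the cluster, had a median of 931 counts in input and 1277 in the heavy polysome libraries, whereas HOXA9 had 915 and 472 and HOXA13 had 409 and 164. These are counts without scaling between the fractions.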
